A study of Mus musculus with 8 samples.

Results

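Glutathione S-transferases (GST), UDP-glucuronosyltransferases (UGT) and sulfotransferases (SULT) were described in intestinal epithelial cells (IECs) of the mouse. The genes were chosen by name, as protein-coding genes whose symbol begins with Gst and a cytosolic or kappa class letter, with Ugt1 or Ugt2, or with Sult. The rule found 57 genes, 22 GST, 17 UGT and 18 SULT, of 40178 genes listed in the colon or the ileum. Of the 57, 44 were listed in the colon, 56 in the ileum and 43 in both. RNAseq was performed on IECs released from the gut wall with EDTA, which gave 8 libraries, 2 from each tissue of each genotype, from mice aged 8 weeks. The labels number these as replicates and do not say which colon and ileum libraries came from 1 animal. WT mice were Ddx5+/+ Villin1Cre+ and DDX5ΔIEC mice were Ddx5 fl/fl Villin1Cre+. All mice therefore carried the Cre, which the Villin1 promoter drives throughout the gut epithelium, and none of the comparisons has animals without it. DDX5 is a DEAD-box RNA helicase, and the study asked which transcripts of the epithelium change with its loss, in the large intestine and in the ileum (the distal part of the small intestine).

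The 3 families carry out the conjugation step of detoxification. GST enzymes attach glutathione to electrophiles, UGT enzymes attach glucuronic acid to bilirubin, steroids and drugs, and SULT enzymes transfer sulfate from the donor PAPS to phenols, steroids and catecholamines. The gut epithelium meets dietary and microbial compounds first, and transporters such as ABCC2 carry the conjugates back into the lumen. Many GST and UGT genes are known targets of NRF2, which binds antioxidant response elements, and of nuclear receptors and the hepatic and intestinal factor HNF1.

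The bases upstream of the start site are shown for 5 genes on which the results below turn. They are Gsta3, whose genotype difference had opposite signs in the 2 tissues, Gstm1, which was low in the ileum, Ugt2a3, which was nearly limited to the ileum, and Ugt1a1 and Ugt1a7c, which start from separate promoters of 1 locus. Each stretch holds the 160 bases before a RefSeq start site on GRCm38.p6, written in the direction of the gene. Where RefSeq gives a gene several start sites, only the one nearest the gene start in the GENCODE annotation is shown. Capitals mark matches on either strand to the antioxidant response element core TGACNNNGC, the xenobiotic response element core GCGTG and the HNF1 motif GTTAAT.
Gsta3, chr1:21240425-21240584, plus strand: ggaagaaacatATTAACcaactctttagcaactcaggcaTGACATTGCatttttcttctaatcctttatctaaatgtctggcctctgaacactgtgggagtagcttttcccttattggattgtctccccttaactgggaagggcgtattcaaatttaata
Gstm1, chr3:108017974-108018133, minus strand: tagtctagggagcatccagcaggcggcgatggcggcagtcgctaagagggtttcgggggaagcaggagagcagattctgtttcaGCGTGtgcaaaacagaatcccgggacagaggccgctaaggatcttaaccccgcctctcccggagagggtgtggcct
Ugt1a1, chr1:88211799-88211958, plus strand: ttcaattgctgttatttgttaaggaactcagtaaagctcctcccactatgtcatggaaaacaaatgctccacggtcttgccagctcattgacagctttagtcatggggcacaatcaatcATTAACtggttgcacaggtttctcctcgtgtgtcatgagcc
Ugt1a7c, chr1:88094841-88095000, plus strand: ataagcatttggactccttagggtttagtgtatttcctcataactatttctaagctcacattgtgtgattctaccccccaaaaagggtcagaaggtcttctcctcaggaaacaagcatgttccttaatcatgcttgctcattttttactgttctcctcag
Ugt2a3, chr5:87337196-87337355, minus strand: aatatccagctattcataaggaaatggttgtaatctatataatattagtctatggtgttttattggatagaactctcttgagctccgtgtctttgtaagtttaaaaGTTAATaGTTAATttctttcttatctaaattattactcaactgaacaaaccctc

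Gsta3 holds an antioxidant response element core with its first base at -121 from the start site and an HNF1 motif at -149. Ugt2a3 holds 2 HNF1 motifs separated by 1 base, at -54 and -47, and Ugt1a1 holds 1 at -41, whereas the stretch of Ugt1a7c holds none of the 3 motifs. RefSeq gives 62 promoters, from 250 bases before to 50 bases after the start, for 51 of the 57 genes. The HNF1 motif was found in 11 of the 62, against 7.10% of 32851 promoters of all genes. The antioxidant core was found in 3 of the 62 (Gsta3, Gstm5 and Gstm7), against 12.4% of all promoters, and GCGTG in 13, against 32.4%. For the other motifs searched, AGATAA, for the zinc-finger regulators of the gut, was found in 11 of the 62 against 11.2%. The core promoter motif TATAAA was found in 12 of the 62 against 13.6%. TTTATNA, for the homeobox factors CDX1 and CDX2, was found in 4 against 14.1%, and CAAAGTCCA, for HNF4, in 1 against 0.475%. The CDX motif with A at its open position contains the core promoter motif on the other strand, so these 2 can overlap. Both strands were searched, and a match describes the letters only, and promoters of 1 gene can overlap.

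Total counts ranged from 11571061 to 22984283 per library. Ddx5 was measured at 771 and 706 CPM (counts relative to the effective library size, scaled by TMM over the 8 libraries) in WT colon and 367 and 355 in DDX5ΔIEC colon, and at 700.5 and 700.3 in WT ileum and 340 and 326 in DDX5ΔIEC ileum. Its log2 difference was -1.04 ± 0.09 (SE) in the colon, with an adjusted p of 0.0866, and -1.07 ± 0.18 in the ileum, with an adjusted p of 0.0270 that was above 0.05 under 6 of 11 alternatives, at up to 0.524. All 4 knockout libraries lay below all 4 WT libraries, as their labels require. The 7 epithelial markers (Epcam, Vil1 and keratins among them) were detected in every group, with a summed level of 10554 to 17330 CPM. The 11 leukocyte markers summed to 25.8 to 33.1 in WT colon and 7.78 to 16.3 in DDX5ΔIEC colon, with Cd79a at 0 in the latter, and to 56.6 to 76.5 in the ileum libraries. The 9 mesenchymal, muscle and endothelial markers stayed between 2.71 and 15.1 in all libraries. A set of 3 repeat-like genes took 19.5% of the counts in DDX5ΔIEC ileum replicate 2 and 4.04% or less elsewhere.

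In WT mice the conjugation repertoire differed in make-up between the tissues. Levels of different genes are given as CPM per kilobase of exon. In the colon the SULT1 genes led, with a summed level per kilobase of 328 to 388 in the 2 WT libraries, or 33.3% to 35.7% of the sum over the 57 genes. In the ileum the SULT1 sum was 111 to 126, or 17.2% to 18.3%. The GSTM sum was 104 to 127 in WT colon and 20.9 to 25.2 in WT ileum, and its share went from 10.5% to 11.7% down to 3.46% in both ileum libraries. The GSTP genes took 12.8% to 14.9% of the sum in WT colon and 20.1% to 20.3% in WT ileum, with nearly the same level, 139 to 147 and 123 to 146. The remaining GST classes (kappa, omega and zeta) took 16.0% to 16.7% in the colon and 28.8% to 32.1% in the ileum. The UGT2 share was 13.6% to 13.8% and 16.4% to 18.0%, and the UGT1 share 4.10% to 4.88% and 3.04% to 3.29%. The UGT1 genes share 50.3% to 60.6% of their exon bases with other genes of the same strand. If reads there were left uncounted, their level per kilobase is understated beside the other subfamilies, which was not tested.

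**Figure D1:**
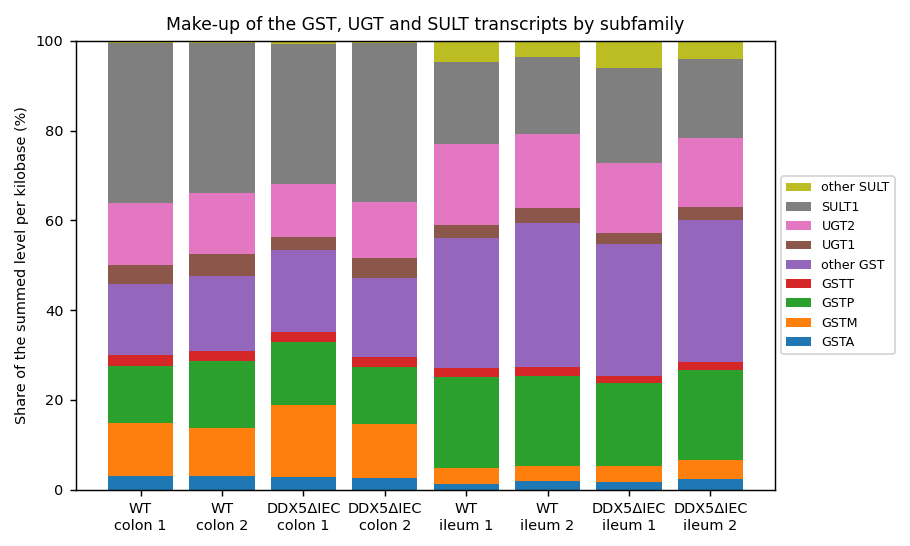
Share of each subfamily in the summed level per kilobase of the 57 genes (percent, vertical axis) in each of 8 libraries (horizontal axis, by genotype, tissue and replicate). The SULT1 band covers 31.3% to 35.7% of the colon libraries and 17.2% to 21.2% of the ileum libraries. The UGT1 band carries the limit of shared exons given in the text.

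In several subfamilies 1 gene supplied most of the level. Gsto1, an omega-class enzyme that reduces dehydroascorbate and arsenic compounds, stood at 141 ± 7 (SD, n = 2) CPM per kilobase in WT colon and 193 ± 41 in WT ileum. It ranked 2 among the 57 genes in WT colon and 1 in WT ileum. Gstp1, the most widely expressed GST of epithelia, stood at 116 ± 6 and 115 ± 14. Of its 50-base words, 33.7% occur in other genes, in an annotation with another version of its identifier. Part of its reads may therefore not have been assigned, which was not tested. Ugt2b34 stood at 117 ± 10 and 97.6 ± 6.1 and carried 22.7% to 28.0% of all reads counted on the 57 genes in WT libraries. Sult1d1, a catecholamine and eicosanoid sulfotransferase, stood at 104 ± 7 and 62.5 ± 3.8. It led the SULT1 genes in WT ileum, whereas Sult1a1, described below, led them in WT colon. Among the GSTT genes, Gstt1 (9.13 ± 0.12) and Gstt3 (8.13 ± 1.13) were close in WT colon, and Gstt3 led in WT ileum with 6.20 ± 0.35 against 2.87 ± 0.76 for Gstt1. The order of the 2 in the colon depended on length: without division by length, Gstt1 was the third of the class.

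**Figure D2:**
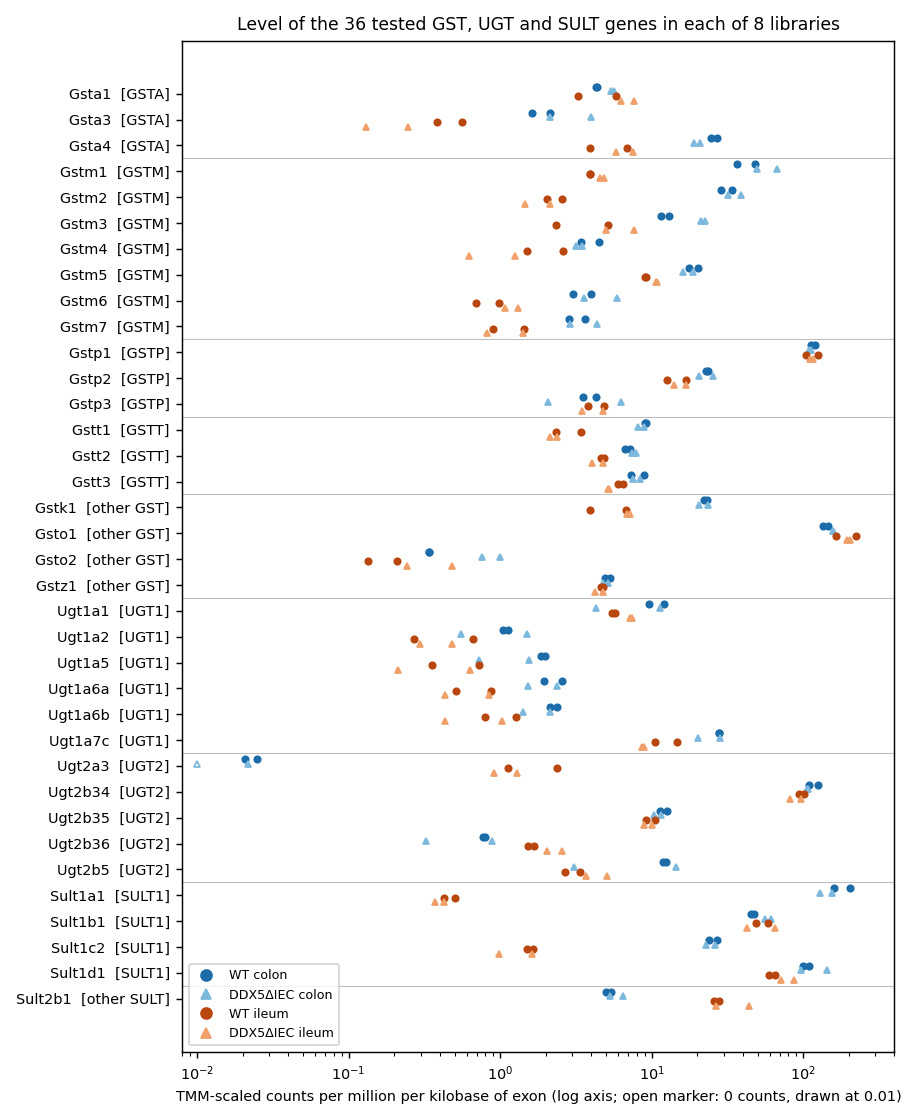
Level of the 36 tested genes in each of 8 libraries (horizontal log axis, CPM per kilobase) with subfamilies separated by lines. Points of 1 group are the 2 mice, and the open marker, drawn at 0.01, is a library with 0 counts. Sult1a1 lies at 129 or more in every colon library and at 0.506 or less in every ileum library.

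Of the 57 genes, 36 passed the filter on low counts in at least 1 comparison. The other 21 (2 GST, 6 UGT and 13 SULT) had between 1 and 47 counts over all 8 libraries and at most 10 in a single one. They include Sult1e1, the estrogen sulfotransferase, with 1 count, the Sult2a and Sult3a genes with 1 to 3 counts each, and Sult4a1, which reached 47. Genes that passed the filter because of 1 group had to be high there, so counts over tested genes do not stand for all 57.

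Ileum was compared with colon in WT mice with edgeR's quasi-likelihood test. Of 36 tested genes, 24 were lower and 4 were higher in the ileum at an adjusted p below 0.05. Of all 15611 genes tested, 21.4% were lower and 22.2% were higher. The median log2 ratio was -1.02 over the 36 genes and -0.02 over all genes. All 7 tested GSTM genes, all 6 tested UGT1 genes and all 3 tested GSTT genes fell, whereas 1 of 3 GSTP genes did. Of the UGT1 genes, only Ugt1a7c kept its call under every alternative fit. The UGT1 genes also share part of their exons, so their calls may not be separate observations. Of the 24 lower genes, 12 kept the call under every one of 10 alternatives. Among the others, Gstt3 lost it under 5 (adjusted p up to 0.323), Gstm4 under 3 (up to 0.275) and Ugt1a1 under 5 (up to 0.285).

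Sult1a1, the phenol sulfotransferase, showed the largest difference. It was measured at 308 and 241 CPM in WT colon and at 0.65 and 0.76 in WT ileum. In raw reads these were 5858 and 5467 against 14 and 11, or 13.3% (95% Wilson interval 13.0% to 13.6%) and 11.5% (11.2% to 11.8%) of the reads on the 57 genes against 0.0449% (0.0268% to 0.0754%) and 0.0452% (0.0253% to 0.0810%). These intervals cover counting error only. The level was 392-fold lower in the ileum (log2 ratio -8.61 ± 0.21, adjusted p = 1.3e-07). Sult1c2, of the same class, was at 50.1 and 43.9 CPM in the colon and 2.77 and 3.05 in the ileum, with a log2 ratio of -4.02 ± 0.14 (adjusted p = 5.02e-07). Both genes were separated between tissues in every library. The drop did not extend to the whole class. Sult1d1 fell by 0.74 ± 0.09 on the log2 scale (adjusted p = 0.000459), a call lost when any 1 of the 4 WT libraries was left out (adjusted p up to 0.111). Sult1b1, which acts on thyroid hormone and dopamine, was at 133 and 126 CPM in the colon and 135 and 162 in the ileum (log2 ratio 0.20 ± 0.11, adjusted p = 0.170).

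The mu-class GST genes form a cluster on chromosome 3. Gstm1 (chr3:108012255-108017973) was at 70.4 and 53.6 CPM in WT colon and 5.77 and 5.76 in WT ileum. Gstm2 (chr3:107981702-107986453) was at 57.3 and 48.5 against 4.29 and 3.40. Every colon library lay above every ileum library for both genes. The ratios were 10.8-fold for Gstm1 (log2 ratio -3.43 ± 0.16, adjusted p = 2.36e-06) and 13.5-fold for Gstm2 (-3.76 ± 0.15, adjusted p = 1.11e-06). Gstm5, at the other end of the cluster (chr3:107895821-107898686), was at 26.0 and 22.6 in the colon and 11.5 and 11.6 in the ileum, a log2 ratio of -1.07 ± 0.12 (adjusted p = 0.000297). It led the mu class in WT ileum with 9.06 ± 0.09 CPM per kilobase, where Gstm1 stood at 3.91 ± 0.005. In WT colon the order was reversed, with Gstm1 at 42.1 ± 8.1 and Gstm5 at 19.0 ± 1.9. Of the 50-base words of Gstm1, 18.9% are shared with other genes, against 5.65% for Gstm2 and 0% for Gstm5.

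Gsta4, an alpha-class enzyme that conjugates the lipid peroxidation product 4-hydroxynonenal, was at 34.4 and 31.3 CPM in WT colon and 4.98 and 8.74 in WT ileum. Its log2 ratio was -2.30 ± 0.22 (adjusted p = 0.000110). Gsta3 fell by 2.03 ± 0.26 on the log2 scale (adjusted p = 0.000496). Gsta1 did not share the difference, with 4.15 and 4.09 against 3.14 and 5.55 (log2 ratio 0.04 ± 0.29, adjusted p = 0.925). Of the 50-base words of Gsta1, 90.5% occur in other genes, so its reads may be shared with Gsta2. Gstp1 was also level across the tissues, with a log2 ratio of -0.01 ± 0.11 (adjusted p = 0.955).

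Higher levels in WT ileum were found for 4 genes. Sult2b1, the cholesterol and hydroxysteroid sulfotransferase, was at 19.7 and 21.2 CPM in the colon and 110 and 102 in the ileum, a 5.16-fold rise (log2 ratio 2.37 ± 0.10, adjusted p = 1.23e-06). Ugt2a3, a bile acid glucuronosyltransferase, had 1 read in each WT colon library and 52 and 72 reads in the WT ileum libraries. With summed reads scaled for library size, the ileum held 71.7 times the colon level, with an exact 95% interval of 19.4 to 599 that covers counting error only. Ugt2b36 rose by a log2 ratio of 1.04 ± 0.25 (adjusted p = 0.0115) and Gsto1 by 0.46 ± 0.14 (adjusted p = 0.0316). The calls of the last pair did not hold throughout: the adjusted p reached 0.242 for Ugt2b36 and was above 0.05 under 5 of 10 alternatives, and reached 0.361 for Gsto1 and was above it under 3 of 10.

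**Figure D3:**
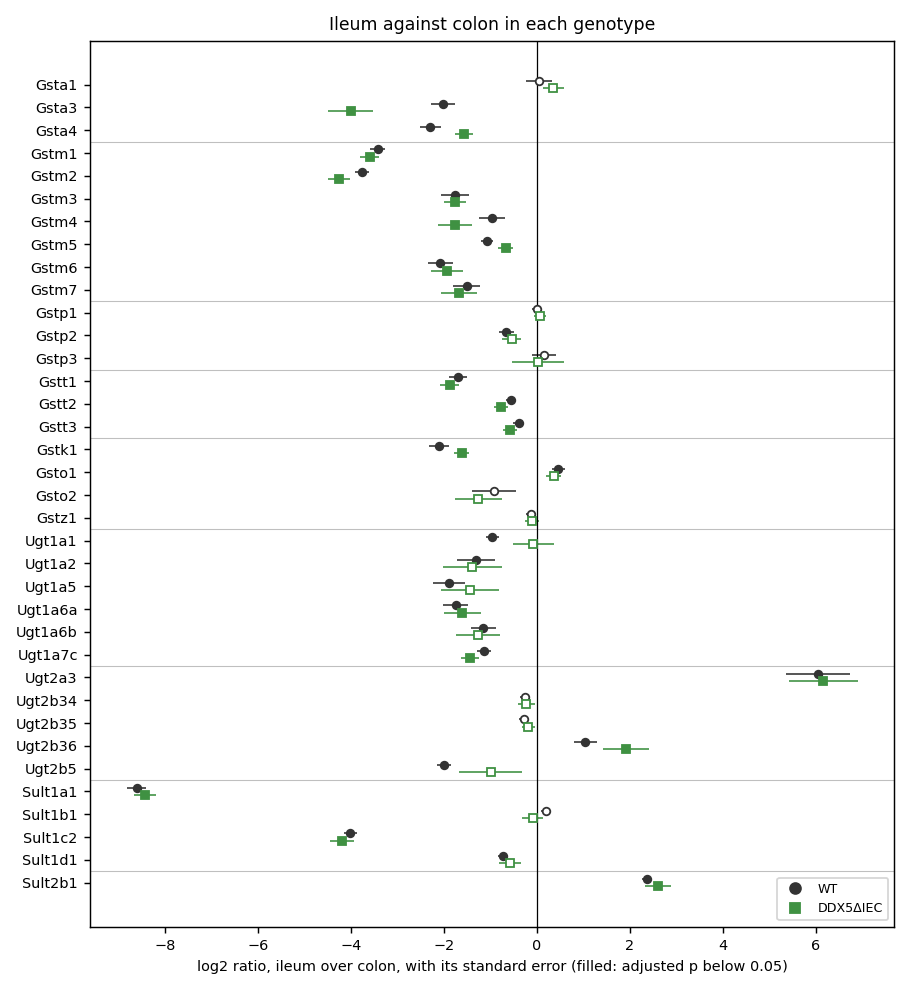
Log2 ratio of ileum over colon (horizontal axis, bars are standard errors) for each tested gene in WT (circles) and DDX5ΔIEC mice (squares). Filled markers have an adjusted p below 0.05. Sult1a1 lies at -8.61 and -8.43, and Ugt2a3 at 6.05 and 6.16.

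The comparison of ileum with colon was repeated in DDX5ΔIEC mice. There, 17 of 36 tested genes were lower and 3 were higher in the ileum at an adjusted p below 0.05, against 11.8% lower and 13.6% higher of all 14816 genes tested. The median log2 ratio was -1.13 over the 36 genes and -0.02 over all genes. The tissues did not overlap for 30 of the 36 genes, against 67.9% of all genes tested. All 7 tested GSTM genes and all 3 tested GSTT genes were again called lower, but only 2 of 6 tested UGT1 genes were. Sult1a1 was at 194 and 233 CPM in DDX5ΔIEC colon and 0.56 and 0.64 in DDX5ΔIEC ileum (log2 ratio -8.43 ± 0.24, adjusted p = 0.000106). Gstm2 had a log2 ratio of -4.26 ± 0.23 (adjusted p = 0.000332) and Gstm1 of -3.60 ± 0.21 (adjusted p = 0.000397). Sult1c2 was at 48.7 and 42.0 against 3.00 and 1.82, and Sult2b1 at 25.5 and 20.9 against 173 and 104. Ugt2a3 had 0 and 1 read in the colon and 29 and 18 in the ileum, a ratio of 94.1 with an exact 95% interval of 16.1 to 3794. The 3 higher genes were Ugt2a3, Sult2b1 and Ugt2b36 (log2 ratio 1.92 ± 0.49, adjusted p = 0.0369).

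Gsta3 differed most between the genotypes in this ratio. Its log2 ratio of ileum over colon was -2.03 ± 0.26 in WT mice and -4.01 ± 0.49 in DDX5ΔIEC mice (adjusted p = 0.00331), that is, 4.07-fold and 16.1-fold lower. The difference of these ratios is the interaction of tissue and genotype, tested over all 8 libraries. No gene of the 36 had an interaction with an adjusted p below 0.05 in edgeR or in DESeq2, and 1 of 36 had an unadjusted p below 0.05. Of all 16178 genes tested, edgeR passed 0.0124% by the adjusted and 4.67% by the unadjusted threshold, and DESeq2 passed 17 genes by the adjusted one. The 1 gene was Gsta3, with an interaction of -2.01 ± 0.62 (log2, adjusted p = 0.991). The next smallest were Gsta4 (0.69 ± 0.34) and Gstm5 (0.37 ± 0.19), both with an adjusted p of 1.00.

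**Figure D4:**
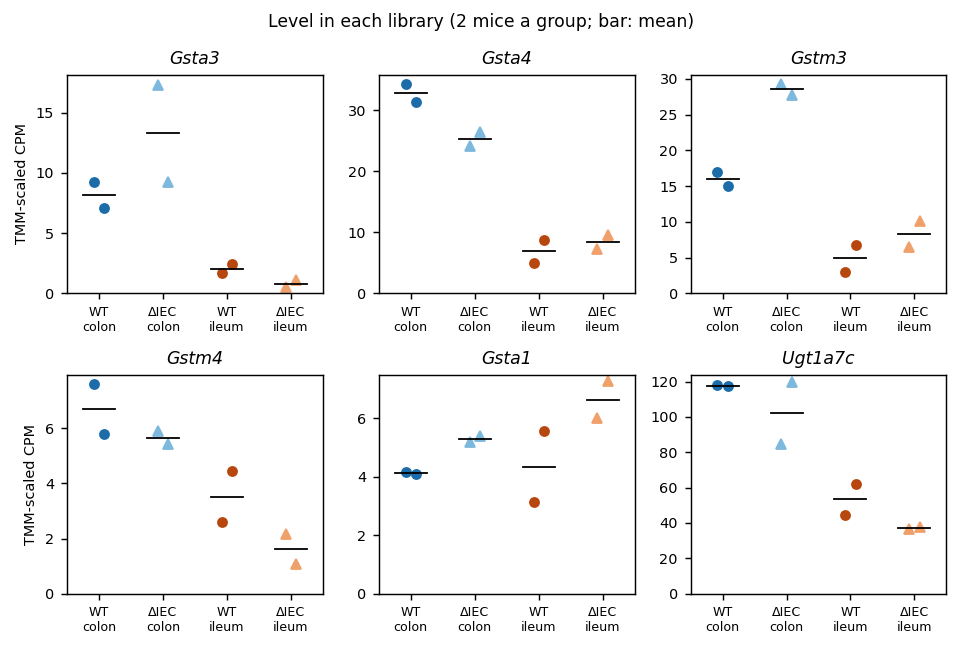
CPM (vertical axes from 0) of 6 genes in each of 8 libraries, with the 2 mice of a group as points and their mean as a bar. Gsta3 was higher in both DDX5ΔIEC colon libraries (17.3 and 9.25) and lower in both DDX5ΔIEC ileum libraries (0.56 and 1.07) than in WT.

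Gsta3 (chr1:21240589-21265661) encodes an alpha-class GST. It was measured at 9.24 and 7.09 CPM in WT colon and 17.3 and 9.25 in DDX5ΔIEC colon. In the ileum it was at 1.66 and 2.43 in WT and 0.56 and 1.07 in DDX5ΔIEC, from 36, 35, 6 and 10 reads. Both DDX5ΔIEC colon libraries lay above both WT colon libraries, though the lower of them (9.25) barely passed the higher WT library (9.24), and both DDX5ΔIEC ileum libraries lay below both WT ileum libraries. The DDX5ΔIEC over WT log2 difference was 0.64 ± 0.20 in the colon (adjusted p = 0.340) and -1.34 ± 0.44 in the ileum (adjusted p = 0.247). The ratio of Gsta3 to Gsta4 reads within a library does not depend on scaling. It was 0.269 and 0.226 in WT colon and 0.717 and 0.351 in DDX5ΔIEC colon. For the ileum it was 0.333 and 0.278 in WT and 0.0769 and 0.112 in DDX5ΔIEC libraries. Gsta4 is not a fixed reference, because its own genotype difference had the opposite sign to that of Gsta3 in each tissue. Its log2 difference was -0.39 ± 0.11 for colon (adjusted p = 0.337) and 0.33 ± 0.22 for ileum (adjusted p = 0.584). The ratio therefore shows a larger genotype difference than Gsta3 alone. A share of 0.273% of the 50-base words of Gsta3 occurs in other genes.

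The genotype comparison in the colon called few of the genes. The study called a protein-coding gene when its log2 ratio reached 0.5 in size and its unadjusted p was below 0.05. By it, 3 of 35 tested genes were higher and 0 were lower in DDX5ΔIEC colon, where 2.64% of all 12557 protein-coding genes were higher, 4.01% lower and 6.64% either. By adjusted p, edgeR called 0 of the 35 and 0% of all 15362 genes. DESeq2 with the block called 0 of the 35 and 116 of all 15362. At an unadjusted p below 0.05, edgeR counted 6 of the 35 and DESeq2 5, against 12% of all genes in edgeR. The median log2 difference was -0.06 over the 35 genes and 0.00 over all genes. The libraries of the 2 genotypes did not overlap for 13 of the 35 genes, against 44.6% of all genes tested. The 3 genes were all GST genes. Gstm3 was at 17.0 and 15.0 CPM in WT colon and 29.3 and 27.8 in DDX5ΔIEC colon, with no overlap, a log2 difference of 0.83 ± 0.10 (1.77-fold, adjusted p = 0.166). Of its 50-base words, 28.8% are shared with other genes. Gsto2, an omega-class dehydroascorbate reductase, had 10 and 12 reads in WT and 28 and 26 in DDX5ΔIEC colon, a log2 difference of 1.34 ± 0.37 (adjusted p = 0.330). Gsta3 was the third. Gstm1 was also higher in both DDX5ΔIEC colon libraries (98.9 and 73.2 against 70.4 and 53.6), but at 0.46 ± 0.09 it lay under the fold of the criterion. The count of higher genes moved with single libraries. In one fit of all 8 libraries without the block it was 2, and in that fit it was 1 without WT replicate 1, 0 without WT replicate 2 or without DDX5ΔIEC replicate 1, and 5 without DDX5ΔIEC replicate 2.

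In the ileum, 2 of 34 tested genes were higher and 3 were lower in DDX5ΔIEC mice by the same criterion, where 3.78% of all 12064 protein-coding genes were higher, 2.83% lower and 6.61% either. By adjusted p, edgeR called 0 of the 34 and 0.697% of all 14068 genes, that is 98. DESeq2 with the block called 0 of the 34 and 39 of all 14068. At an unadjusted p below 0.05, edgeR counted 7 of the 34 and DESeq2 1, against 12.3% of all genes in edgeR. The median log2 difference was -0.06 over the 34 genes and 0.00 over all genes. The genotypes did not overlap for 13 of the 34 genes, against 39.5% of all genes tested. Gstm3 was again higher, at 3.05 and 6.73 CPM in WT and 6.56 and 10.1 in DDX5ΔIEC ileum, where 1 knockout library lay within the WT range (log2 difference 0.83 ± 0.24, adjusted p = 0.178). Gsta1 was at 3.14 and 5.55 against 5.997 and 7.28, without overlap (0.66 ± 0.26, adjusted p = 0.325), with the limit of shared sequence given above.

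The 3 lower genes in the ileum were Gsta3, Gstm4 and Ugt1a7c. Gstm4 was at 2.58 and 4.44 CPM in WT ileum and 2.16 and 1.07 in DDX5ΔIEC ileum, from 56, 64, 23 and 10 reads. The groups did not overlap, but the pair of replicate 1 differed by -0.26 and the pair of replicate 2 by -2.05 on the log2 scale, for a fitted difference of -1.05 ± 0.43 (adjusted p = 0.358). In the colon Gstm4 differed by -0.24 ± 0.19 (adjusted p = 0.648). Ugt1a7c, the UGT1 gene with the highest level per kilobase in both WT tissues, was at 44.5 and 62.3 in WT ileum and 36.4 and 37.8 in DDX5ΔIEC ileum. Its log2 difference of -0.50 ± 0.15 (adjusted p = 0.198) lay just inside the criterion and ranged from -0.75 to -0.26 over the alternatives. The counts again moved with single libraries. In one fit of all 8 libraries without the block, 0 genes were higher and 3 lower. In that fit, higher genes numbered 0 without WT replicate 1, 4 without WT replicate 2 and 1 without either knockout library, and lower genes 5, 0 and 1. With the 4 ileum libraries alone and no replicate block, 0 genes were higher and 2 lower.

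**Figure D5:**
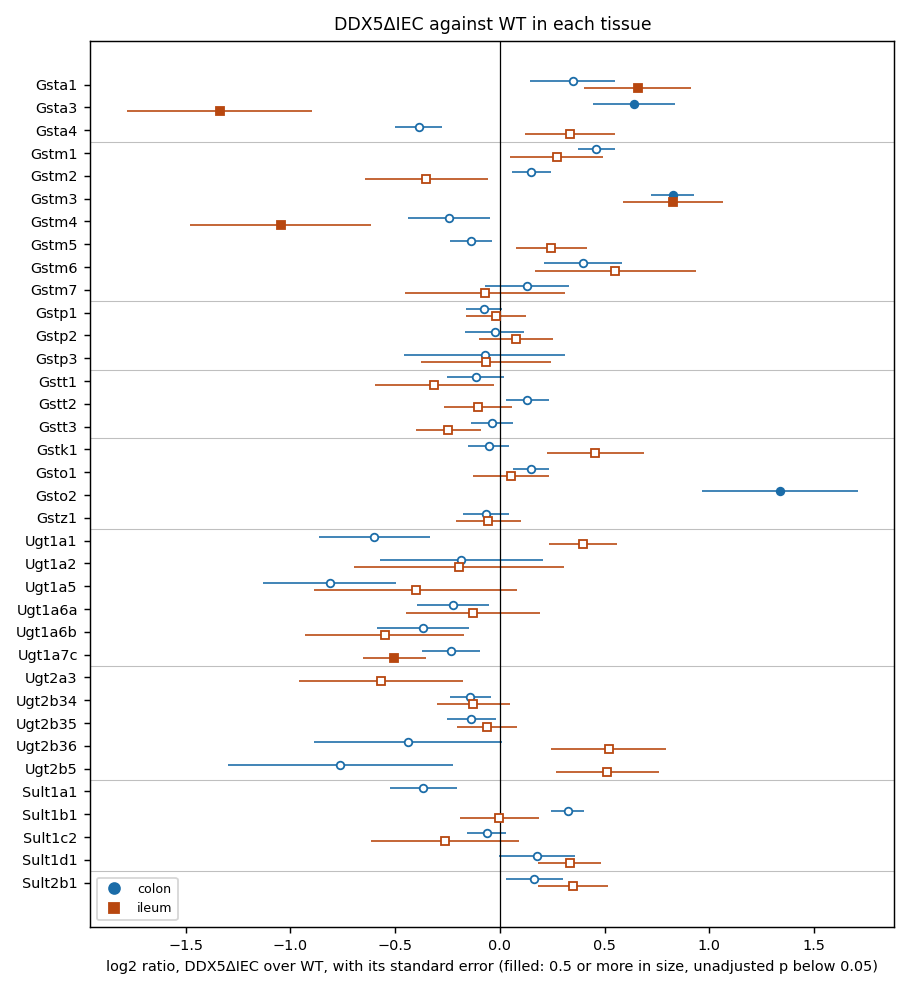
Log2 difference of DDX5ΔIEC over WT (horizontal axis, bars are standard errors) for each tested gene in the colon (circles) and the ileum (squares). Filled markers pass the study's criterion, and none has an adjusted p below 0.05. Gstm3 lies at 0.83 in both tissues, and Gsta3 at 0.64 and -1.34.

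None of the 10 tested UGT genes passed the criterion in the colon, where all 10 had a negative log2 difference, from -0.81 to -0.18 for the 6 UGT1 genes and from -0.76 to -0.14 for the 4 UGT2 genes. In the pair of replicate 1, each of these genes was lower in DDX5ΔIEC colon. In the pair of replicate 2, Ugt1a2 (0.41), Ugt2b5 (0.29), Ugt2b36 (0.20), Ugt1a7c (0.03) and Ugt2b35 (0.02) were higher on the log2 scale, and the others lower. In the colon 1 library stood apart, which is shown with Ugt2b5 and Ugt1a1, chosen after their values were seen. In DDX5ΔIEC colon replicate 1, Ugt2b5 was at 5.74 CPM, against 27.1 in replicate 2 and 23.0 and 22.2 in WT colon. Ugt1a1, the bilirubin glucuronosyltransferase, was at 9.49 in that library, against 25.4 in replicate 2 and 21.3 and 26.9 in WT colon. All 6 tested UGT1 genes were lower in replicate 1 than in replicate 2 of DDX5ΔIEC colon, by a median of 0.85 on the log2 scale, where the median of replicate 2 over replicate 1 was 0.14 in WT colon. In the ileum that median was 0.71 in WT and 0.80 in DDX5ΔIEC mice. The fitted colon differences were -0.76 ± 0.54 for Ugt2b5 (adjusted p = 0.615) and -0.60 ± 0.26 for Ugt1a1 (adjusted p = 0.457). In the fit of all libraries but replicate 2 of DDX5ΔIEC colon, these 2 genes had an adjusted p below 0.05, and no other of the 57 did. That fit called 193 of all 17049 genes, and the 1 knockout colon library left in it is assumed to vary like the other groups. In the ileum Ugt1a1 was at 12.6 and 12.1 in WT and 16.0 and 16.6 in DDX5ΔIEC, without overlap (0.40 ± 0.16, adjusted p = 0.358). The UGT1 genes of chromosome 1 share their last exons, 54.6% of the exon bases of Ugt1a7c and 58.9% of those of Ugt1a1 with other genes of the same strand, and how reads over these exons were assigned is not given in the sources used here. The annotation of Ugt1a7c also runs on to base 88220002, where that of Ugt1a1 ends at 88218997. Whether reads from other starts of the locus were counted on Ugt1a7c over that stretch was not tested.

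Marker genes of several cell types also differed between genotypes. In the colon, 4 of 8 colonocyte markers were higher by the study's criterion, with a summed level of 4200 to 4498 CPM in WT and 4941 to 5536 in DDX5ΔIEC. In WT mice, Car4 and Ceacam20 of this list were higher in the ileum than in the colon, by log2 ratios of 1.07 and 1.04. Car1, Aqp8, Slc26a3, Slc37a2, Mettl7b and Guca2a were lower there. The sum was therefore not taken to stand for colonocytes alone. All 6 tested tuft cell markers of 7 were lower in each tissue, with sums of 82.8 to 90.6 against 28.0 to 59.5 in the colon and 436 to 652 against 289 to 342 in the ileum. Genes of the Paneth cell list, 2 of 4 tested lower in the colon, summed to 1391 to 1577 in WT colon and 218 to 427 in DDX5ΔIEC colon. In WT mice Defa24, Defa17, Lyz1, Mmp7 and Itln1 were higher in the ileum by log2 ratios of 12.8, 12.3, 10.5, 6.71 and 4.65, and Ang4 by 0.70. The colon sum was therefore not taken to stand for Paneth cells. Goblet cell markers, of which 2 of 7 were lower in the colon, summed to 46462 to 51758 in WT and 27820 to 41477 in DDX5ΔIEC. In the ileum, 2 of 7 goblet and 4 of 8 enteroendocrine markers were higher, and of 9 enterocyte markers 1 was higher and 1 lower. Enteroendocrine markers were also higher in the colon, 3 of 8 by the criterion. None of these marker lists had a gene at 0 in any group. Of the leukocyte markers, 2 of 6 tested were lower in the colon and 1 of 8 tested was higher in the ileum. In bulk libraries, fewer cells of a type and less RNA per cell cannot be told apart, and the part of these shifts in the values above was not tested.

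Other genes of the pathway were read from lists, each beside the median over all genes of 0.00 in both tissues. The first list holds enzymes that the name rule left out. Some are further GST or UGT enzymes, such as Mgst3 and Ugt8a, and others, such as the hydrolase Ephx1, do not conjugate. Of this list, 1 of 13 tested was higher in the colon (median 0.03). In the ileum 3 of 11 were higher and 1 was lower (median 0.00). Ephx1, the epoxide hydrolase that acts on the same epoxides as GST enzymes, was at 11.3 and 8.58 CPM in WT colon and 22.6 and 18.2 in DDX5ΔIEC colon, and at 1.57 and 1.46 against 4.68 and 3.96 in the ileum. Both tissues were without overlap, with log2 differences of 1.03 ± 0.13 (adjusted p = 0.166) and 1.51 ± 0.33 (adjusted p = 0.0743). The others past the criterion in the ileum were Ptges (2.07 ± 0.50), Faah (0.53 ± 0.14) and Hpgds (-0.77 ± 0.18), the prostaglandin D synthase of tuft and immune cells.

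Slc7a11 and Gclc stand in both the cofactor and the NRF2 list. Among 14 tested genes of cofactor supply, 1 was higher and 1 lower in the colon (median -0.05) and none passed the criterion in the ileum (median -0.06). Slc7a11, which imports cystine for glutathione synthesis, was lower in the colon (-1.15 ± 0.21, adjusted p = 0.260), and the sulfate transporter Slc26a2 higher (0.66 ± 0.14, adjusted p = 0.272). Gclc, the rate-limiting enzyme of glutathione synthesis, differed by -0.08 ± 0.09 and -0.08 ± 0.14. Of 13 tested genes of conjugate efflux and breakdown, 2 were higher in the colon (median 0.19), and 3 were higher and 1 lower in the ileum (median 0.14). Abcc2, which exports glucuronides and glutathione conjugates, was at 0.893 and 0.616 in WT colon and 2.54 and 1.23 in DDX5ΔIEC colon, and at 74.7 and 83.0 against 160 and 104 in the ileum (1.26 ± 0.34 and 0.72 ± 0.18, adjusted p = 0.322 and 0.126).

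Of 15 tested genes of the NRF2 axis, 1 was higher and 1 lower in the colon (median -0.02), and 1 was lower in the ileum (median 0.00). That gene was Nqo1, a quinone reductase and reference NRF2 target, at 24.8 and 23.7 CPM in WT ileum and 15.0 and 12.6 in DDX5ΔIEC ileum (-0.81 ± 0.16, adjusted p = 0.0528). In the colon, the aldo-keto reductase Akr1b8 was higher (0.71 ± 0.11, adjusted p = 0.238). Of the xenobiotic receptors and their reference targets, 0 of 16 tested passed the criterion in the colon (median 0.05, 0 by adjusted p), and 4 of 17 were higher in the ileum (median 0.19). There, 3 had an adjusted p below 0.05 in edgeR with the block. None of the 3 kept it without the block (0.305 for Cyp3a11 and Aldh1a1, 0.456 for Cyp3a25), in one fit of all 8 libraries, or when any 1 ileum library was left out. Cyp3a11, a drug-metabolizing monooxygenase and target of the receptor PXR, was at 1.38 and 1.66 in WT ileum and 9.37 and 6.42 in DDX5ΔIEC ileum (2.39 ± 0.31, adjusted p = 0.00809). Cyp3a25 differed by 1.86 ± 0.26 (adjusted p = 0.0151), and Aldh1a1, a retinaldehyde dehydrogenase, by 1.31 ± 0.17 (adjusted p = 0.00788). The Cyp3a genes are close paralogs, and how far their reads could be split was not tested. Of the intestinal regulators, Cdx2 was lower in the colon (-0.54 ± 0.15, adjusted p = 0.328, 1 of 14 tested) and Foxa2 higher in the ileum (0.75 ± 0.27, adjusted p = 0.293, 1 of 15 tested).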

How the data were processed

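RNAseq of IECs was analysed in 8 libraries, grouped by their labels. According to the study's methods, ribosome-depleted RNA was sequenced paired-end and aligned to mm10 with STAR, and the authors deposited whole-number counts per gene from featureCounts, made from uniquely mapped reads over exons; STAR 2.6.1a and DESeq2 1.18.1 are named in the submitters' processing notes. Whether counting used the strand is not given in the sources used here. The deposited fold changes, p-values and normalized values were not used. All count columns had a sample.

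Raw counts were filtered with filterByExpr (minimum count 10), scaled with TMM and tested with edgeR 4.0.16 (quasi-likelihood, R 4.3.3, Benjamini-Hochberg over all genes tested). Each standard error of a log2 value was back-calculated as its absolute size divided by the square root of the F statistic. The bars in the figures of log2 values are the same. Genotypes were compared within a tissue with the replicate number as a block, since the study describes pairs of cohoused littermates and used a harvest covariate. Same-numbered libraries deviated together with a correlation of 0.00 in the colon, 0.13 in the ileum and 0.14 between the tissues of each genotype, and the labels do not say that a number marks a pair or an animal. Tissues and their interaction with genotype were tested without a block, and a gene listed in 1 table was counted as 0 in the other. With 2 mice a group, the p-values rest on few degrees of freedom.

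The genes and lists were chosen with earlier results of these data known. Per-library values are given for genes past the study's criterion, leading a subfamily, among the 5 largest tissue ratios in a direction, or among the 3 smallest interaction p-values. Alternatives were DESeq2 1.42.0, RLE, other filters and blocks, all 8 libraries in one fit, and each library left out. Positions and shared 50-base words come from GENCODE vM21 on the same build, whose identifier versions matched for 51 of the 57 genes, and upstream sequences from RefSeq. On simulated data, 200 genes were changed by a log2 fold of 1.5, and each fit was tested for their recovery. By the study's criterion the fits called 100% of these in the colon (15063 genes) and in the ileum (13860), with 3.06% and 2.17% of the unchanged genes. By adjusted p they called 96% and 84.5% in the tissue comparisons of WT (15242) and DDX5ΔIEC (14519), with 0.160% and 0.161% of the unchanged genes, and 69.5% for the interaction (15679), with 0.0388%.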

Additional observations from a re-analysis of the deposited data

Results flagged for a closer look

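Gsta3 was noted because its genotype differences pointed in opposite ways in the 2 tissues: both DDX5ΔIEC libraries were above WT in the colon and below WT in the ileum. The interaction of tissue and genotype was -2.01 on the log2 scale, with an adjusted p of 0.991 in edgeR. Over 13 alternatives it lay between -2.49 and -1.50, and its adjusted p was below 0.05 in 1 of them, at 0.00222 without a filter on low counts. The ileum values rest on 6 to 36 reads per library.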

How the results depend on the processing

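Of the genes called in the colon by the study's criterion, 3 higher and 0 lower, DESeq2 with the replicate block gave 1 and 1, a log2 ratio of at least 1 gave 1 higher, and no filter on low counts gave 1 lower. Single libraries were left out in one fit of the other 7 without the block, which with all 8 gave 2 higher and 0 lower. It gave 0 to 5 higher genes (0 without WT replicate 2 or DDX5ΔIEC replicate 1, 5 without DDX5ΔIEC replicate 2) and 0 to 4 lower genes (4 without DDX5ΔIEC replicate 2). Of the 2 higher genes in the ileum, 0 were left without the replicate block, in DESeq2, with all 8 libraries in one fit and at a log2 ratio of at least 1, and the 3 lower genes became 0 in DESeq2. Leaving out single libraries gave 0 to 4 higher and 0 to 5 lower genes. Without a filter, Gstm3 in the ileum had an adjusted p of 0.0388. Over all genes, the ileum comparison called 98 by adjusted p, against 1 without the replicate block, 39 in DESeq2, 7 with all 8 libraries in one fit, 20 without the 3 repeat-like genes, 423 without a filter and 0 to 1 with single libraries left out, and the colon comparison called 0, against 5, 116 and 10 in the first 3 of these.

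The WT tissue comparison gave 2 to 3 higher and 12 to 18 lower genes when single libraries were left out, against 4 and 24, the lowest without WT ileum replicate 1 for lower genes. With the replicate number as a replicate block, the paired fit gave the same counts, 4 and 24, and 3 and 19 in DDX5ΔIEC mice, against 3 and 17. The interaction called 0 genes, also with the replicate number within genotype as a replicate block, but 1 (Gsta3) without a filter and 0 to 1 when single libraries were left out (Ugt2b5 without DDX5ΔIEC colon replicate 2). Gstt1 was 3 in rank within its class in WT colon when levels were not divided by length, and 1 when they were. Of 102 values of named genes, 27 changed sign under at least 1 alternative, and none of these 27 was called. The cause of these changes was not tested. Low counts limit Gsto2, Ugt2a3, Gstm4 and Gsta3 in the ileum.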
